A study of Mus musculus with 9 samples.

Results

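Hematopoietic stem cells (HSCs) from the bone marrow of old mice given the β3-adrenergic agonist BRL37344 were compared with HSCs from young mice given saline. The libraries were chosen by their titles, 3 in each of the groups called BRL37344 old and saline young here, which makes 6 of the 9 libraries of the study. The other 3, from old mice given saline (saline old), are set beside them for many of the genes. All mice were C57BL/6 and carried subcutaneous osmotic pumps for 12 weeks in all, with a second pump added after 6 weeks. The pumps held BRL37344 at 2.4 mg per kg per day for BRL37344 old, and phosphate-buffered saline for saline old and saline young. Mice called old were 15 to 20 months of age and mice called young were 2 months of age at implantation. About 2000 sorted HSCs went into each library, and the labels name no sorting markers. BRL37344 old and saline young differ in both age and agent, and no young mice given BRL37344 are among the samples used, so age and agent cannot be told apart within this comparison. Saline old differs from BRL37344 old by the agent and from saline young by age, and its values are given for many genes but not for all.

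HSCs sit in bone marrow niches beside vessels and sympathetic nerves and give rise to every blood lineage. With age the pool of phenotypic HSCs grows, its output leans towards myeloid cells and platelets, and a recurrent set of genes rises, among them genes of platelet adhesion, metal binding, aldehyde detoxification and cell junctions. Noradrenaline released by sympathetic nerves acts through β-adrenergic receptors, which couple mainly to cyclic AMP. The β3 receptor is best known from fat cells and is also found on stromal cells of the marrow niche.

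The files hold RPKM, reads per kilobase of transcript scaled to the reads of the library, for each gene and library. The steps between low values implied 16000000, 33620000 and 44920000 reads in BRL37344 old, 15320000, 17000000 and 41440000 reads in saline old and 12180000, 18080000 and 22480000 reads in saline young. The fewest were in saline young replicate 1. The HSC genes Kit, Ly6a and Meis1 were above 100 RPKM in all 9 libraries. Other HSC markers were lower, with Procr at 28.98 to 71.0 RPKM and Slamf1 at 13.9 to 41.6 RPKM over these libraries. Neutrophil markers also varied between libraries. Their mean log2(RPKM + 0.5) over 8 genes was 1.94, 7.90 and 6.23 in BRL37344 old, 5.23, 4.67 and 4.46 in saline old and 5.79, 6.38 and 9.42 in saline young. BRL37344 old replicate 2 and saline young replicate 3 stood highest, and counts are also given without these 2 libraries. In sorted bulk RNA, fewer cells of a type and less RNA per cell cannot be told apart.

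Of 13514 genes tested, 104 (0.77%) passed an adjusted p of 0.05 in BRL37344 old against saline young. The test was limma on log2(RPKM + 0.5) over all 9 libraries, with Benjamini-Hochberg adjustment over all genes, and every adjusted p below comes from it. Of these, 94 (0.696%) were higher in BRL37344 old and 10 (0.074%) were lower. The rises had a median log2 difference of 1.95 and a range of 0.58 to 4.47, and 44 of them were above 2. The falls had a median of -1.5. For all 104 genes the 3 BRL37344 old values lay outside the range of the 3 saline young values, as they did for 15.2% of all genes tested (7.29% higher and 7.88% lower). Saline old against saline young, which uses the same young libraries, gave 159 genes higher (1.18%) and 54 lower (0.4%). Of the 94 rises in BRL37344 old, 10 did not pass in saline old against saline young, and of the 10 falls, 4 did not.

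The count leaned on single libraries. It was 64 without BRL37344 old replicate 2, 163 without BRL37344 old replicate 3, 57 without saline young replicate 2 and 62 without saline young replicate 3. Without the 2 libraries highest in neutrophil markers it was 42, of which 41 were rises. Of the 94 rises, 48 passed whichever of the 9 libraries was left out and 35 passed with BRL37344 old replicate 2 and saline young replicate 3 both left out. Of the 10 falls, Plac8 and Serpina3g passed whichever library was left out, and none passed with both of those left out.

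**Figure D1:**
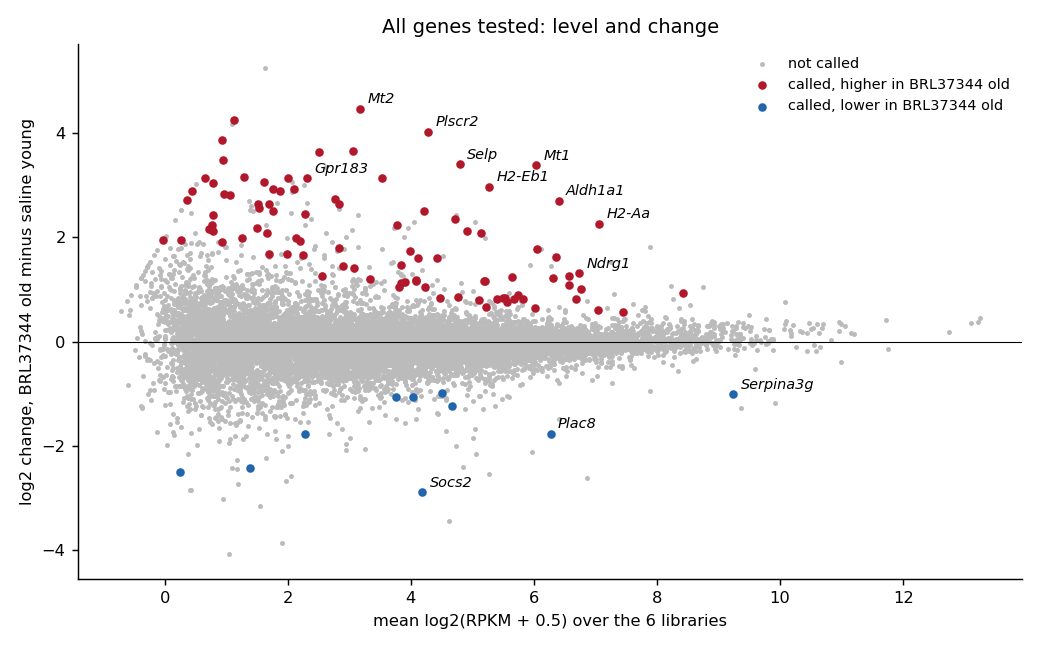
Each point is 1 of the 13514 genes tested, with the mean log2(RPKM + 0.5) over the 6 libraries on the horizontal axis and the log2 difference, BRL37344 old minus saline young, on the vertical axis. Red points are the 94 rises and blue points the 10 falls that passed the test, and the rises reach 4.47 while the deepest fall is -2.90.

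The largest rise among the called genes was in Mt2. Mt2 and its neighbour Mt1 encode metallothioneins, small cysteine-rich proteins that bind zinc and copper and buffer oxidative stress. Mt2 had 33.6, 28.3 and 78.2 RPKM in BRL37344 old HSCs, 67.04, 83.5 and 54.3 RPKM in saline old HSCs and 0.693, 1.25 and 2.88 RPKM in saline young HSCs. BRL37344 old and saline young did not overlap, and the lowest BRL37344 old value was far above the highest saline young value. The log2 difference was 4.47 ± 0.43 (SE) with an adjusted p of 0.000968. Mt1 had 169, 201 and 281 RPKM in BRL37344 old HSCs, 231, 288 and 223 RPKM in saline old HSCs and 15.5, 16.6 and 30.4 RPKM in saline young HSCs, and here too both old groups were above every young library. Its log2 difference was 3.38 ± 0.26 with an adjusted p of 0.000418. BRL37344 old and saline old overlapped for both genes, with log2 differences of -0.67 ± 0.43 for Mt2 (adjusted p 0.848) and -0.21 ± 0.26 for Mt1 (adjusted p 0.909). Of the 8 tested genes of metallothionein and zinc handling, these were the 2 that passed. The median of the 8 was 0.15, against -0.04 over all genes tested.

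Since both metallothionein genes moved, the 150 bases before their annotated starts are shown, from RefSeq promoters on GRCm38.p6. Capitals mark the core of the metal response element, searched as TGCACNC or TGCGCNC on both strands, the motif bound by the zinc-sensing factor MTF-1. Mt1 lies at chr8:94178939-94179088 and Mt2 at chr8:94172468-94172617, both on the plus strand.
Mt1: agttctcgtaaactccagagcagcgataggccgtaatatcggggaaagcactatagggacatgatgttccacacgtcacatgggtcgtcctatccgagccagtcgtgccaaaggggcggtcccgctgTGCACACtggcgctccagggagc
Mt2: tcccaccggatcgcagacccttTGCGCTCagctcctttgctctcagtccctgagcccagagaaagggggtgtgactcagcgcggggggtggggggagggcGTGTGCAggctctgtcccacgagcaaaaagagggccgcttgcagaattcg
The Mt1 window held 1 match and the Mt2 window held 2, of which the second is on the minus strand. These counts hold only for the windows shown, which depend on the annotated start. Bases past that start were not searched, so the counts are not those of the whole promoter. At least 1 match was present in 14.7% of 32851 promoter windows of the same length, so a match alone sets neither gene apart.

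Selp, Itgb3 and Plek, from the list of megakaryocyte and platelet genes, also rose. Selp encodes P-selectin, which platelets and endothelium use to capture leukocytes, and is among the genes most often reported to rise in aged HSCs. It had 87.9, 61.1 and 136 RPKM in BRL37344 old HSCs, 142, 129.9 and 109 RPKM in saline old HSCs and 9.98, 8.95 and 5.83 RPKM in saline young HSCs. The lowest BRL37344 old value was far above the highest saline young value, and BRL37344 old overlapped saline old. Selp was 11.5 times as high in BRL37344 old as in saline young by the ratio of means, with a log2 difference of 3.40 ± 0.28 and an adjusted p of 0.000511. Itgb3, the β3 integrin of the fibrinogen receptor, averaged 37.3 ± 5.76 RPKM in BRL37344 old and 11.97 ± 2.65 RPKM in saline young (SD, n = 3 each), a log2 difference of 1.61 ± 0.19 with an adjusted p of 0.00356. Plek, which encodes pleckstrin, a protein kinase C substrate of platelets, had 142, 177 and 118 RPKM in BRL37344 old and 55.7, 48.6 and 36.5 RPKM in saline young, a log2 difference of 1.62 ± 0.21 with an adjusted p of 0.00558. Its BRL37344 old mean, 146 ± 29.2 RPKM, was also the highest of the groups, against 108 ± 25.97 RPKM in saline old.

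These 3 were the members that passed among 24 tested megakaryocyte and platelet genes, of which 18 had a positive difference and the median was 0.36 (0.10 without BRL37344 old replicate 3). Vwf, which encodes von Willebrand factor and marks platelet-biased HSCs, did not pass. It had 69.7, 42.1 and 100 RPKM in BRL37344 old HSCs, 149.6, 139 and 119 RPKM in saline old HSCs and 40.4, 21.04 and 49.3 RPKM in saline young HSCs, so that BRL37344 old overlapped saline young and lay below every saline old library. Its log2 difference was 0.93 ± 0.34 with an adjusted p of 0.403, against 1.94 with an adjusted p of 0.0211 in saline old against saline young. The direct difference between BRL37344 old and saline old was -1.02 ± 0.34, with an adjusted p of 0.839. The megakaryocyte genes Pf4, a platelet chemokine, and Itga2b, the partner of Itgb3, overlapped between BRL37344 old and saline young, at 200, 181 and 520 RPKM and 27.9, 15.3 and 51.8 RPKM in BRL37344 old against 215, 245 and 100.4 RPKM and 24.8, 26.3 and 17.1 RPKM in saline young.

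The gene with the smallest adjusted p was Plscr2, which encodes a phospholipid scramblase of the plasma membrane. It had 74.7, 56.4 and 114 RPKM in BRL37344 old HSCs, 142, 127 and 136 RPKM in saline old HSCs and 4.702, 4.8 and 3.58 RPKM in saline young HSCs. Every BRL37344 old value was far above every saline young value and none reached the lowest saline old value. The log2 difference from saline young was 4.03 ± 0.23 with an adjusted p of 7.39e-05, and the difference from saline old was -0.78 ± 0.23 with an adjusted p of 0.839. Nupr1, a small stress-induced chromatin protein, showed the same order, with 52.1, 46.5 and 84.9 RPKM in BRL37344 old HSCs, 94.4, 99.7 and 106 RPKM in saline old HSCs and 10.3, 10.6 and 12.9 RPKM in saline young HSCs. Its log2 difference from saline young was 2.35 ± 0.20 with an adjusted p of 0.000656. Nupr1 was the only one of 27 tested genes of the unfolded protein response that passed, and the median of that list was 0.08.

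Aldh1a1, Gstm2, Gstm7 and Gstt1, from the list of glutathione transferases and aldehyde dehydrogenases, rose. Aldh1a1, the aldehyde dehydrogenase that also makes retinoic acid, had 197, 195 and 263 RPKM in BRL37344 old HSCs, 199.9, 255 and 238 RPKM in saline old HSCs and 43.6, 36.6 and 22 RPKM in saline young HSCs. Its log2 difference was 2.70 ± 0.23 with an adjusted p of 0.000626, and BRL37344 old overlapped saline old. Gstm2, a glutathione transferase, averaged 45.9 ± 18.5 RPKM in BRL37344 old, 78.8 ± 19.9 RPKM in saline old and 7.62 ± 2.59 RPKM in saline young, and differed from saline young by 2.5 ± 0.31 on the log2 scale with an adjusted p of 0.00518. Gstm7 and Gstt1, of the same enzyme class, rose less, by 1.17 (adjusted p 0.00558) and 0.79 (adjusted p 0.0263). The Gstt1 rise passed in 2 of the 9 fits that left out a library. These 4 passed of 19 tested glutathione transferases and aldehyde dehydrogenases, 14 of which had a positive difference, with a median of 0.30.

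Enzymes outside that list rose as well. Sult1a1, a sulfotransferase of phenols and catecholamines, had 138, 122 and 111 RPKM in BRL37344 old and 41.8, 32.1 and 32.8 RPKM in saline young, a log2 difference of 1.79 ± 0.16 with an adjusted p of 0.000661. Aspa, which cleaves N-acetylaspartate, averaged 29.5 ± 3.84 RPKM in BRL37344 old and 5.85 ± 1.14 RPKM in saline young, with an adjusted p of 0.000511. Hpgds, the hematopoietic prostaglandin D synthase, averaged 12.2 ± 3.13 RPKM in BRL37344 old and 4.05 ± 0.552 RPKM in saline young, with an adjusted p of 0.0148, and passed in 5 of the 9 left-out fits. Dhrs3, a retinaldehyde reductase, averaged 12.9 ± 2.1 RPKM in BRL37344 old, 9.102 ± 3.25 RPKM in saline old and 3.58 ± 1.82 RPKM in saline young. It lay at the threshold and passed in 2 of the 9 left-out fits. Gda, a guanine deaminase, differed by 1.47 with an adjusted p of 0.0209 and passed in 5 of them.

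Cldn5, Tm4sf1 and Sdpr, from a list of junction and membrane genes that HSCs share with endothelium, rose. Cldn5, a claudin of tight junctions, had 18.8, 10.5 and 25.7 RPKM in BRL37344 old HSCs, 38.2, 29.6 and 21.5 RPKM in saline old HSCs and 1.96, 2.14 and 3.08 RPKM in saline young HSCs. The groups BRL37344 old and saline young were apart, while BRL37344 old and saline old overlapped. Its log2 difference was 2.63 ± 0.33 with an adjusted p of 0.00478. Tm4sf1, a tetraspanin-like membrane protein, averaged 34.6 ± 9.28 RPKM in BRL37344 old, 53.6 ± 4.65 RPKM in saline old and 3.797 ± 2.44 RPKM in saline young, with an adjusted p of 0.00178. Sdpr, a caveolar coat protein now called cavin-2, had 63.3, 66.9 and 88.1 RPKM in BRL37344 old and 20.1, 14.2 and 15.9 RPKM in saline young, with an adjusted p of 0.000661.

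These 3 were called among 16 tested junction genes, whose median was 0.27 (0.17 without BRL37344 old replicate 1), and 12 of the 16 were positive and 4 negative. The defining endothelial gene Cdh5 was at or below 0.258 RPKM and Kdr at or below 0.0436 RPKM in all 9 libraries. The summed level of 7 endothelial markers was 71.1 to 73.0 RPKM in BRL37344 old, 70.1 to 84.5 RPKM in saline old and 82.4 to 98.2 RPKM in saline young, so BRL37344 old lay below saline young. Wwtr1, Amotl2 and Fhdc1, which belong to no list, also rose. Wwtr1, which encodes the coactivator TAZ, had 13.3, 12.1 and 9.12 RPKM in BRL37344 old and 1.17, 0.409 and 1.097 RPKM in saline young, with an adjusted p of 0.000698. Amotl2, an angiomotin that binds such coactivators, averaged 8.68 ± 2.102 RPKM in BRL37344 old and 1.89 ± 0.451 RPKM in saline young, with an adjusted p of 0.00488. Fhdc1, a formin, averaged 17.4 ± 4.27 RPKM in BRL37344 old and 2.38 ± 1.37 RPKM in saline young, with an adjusted p of 0.00691.

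**Figure D2:**
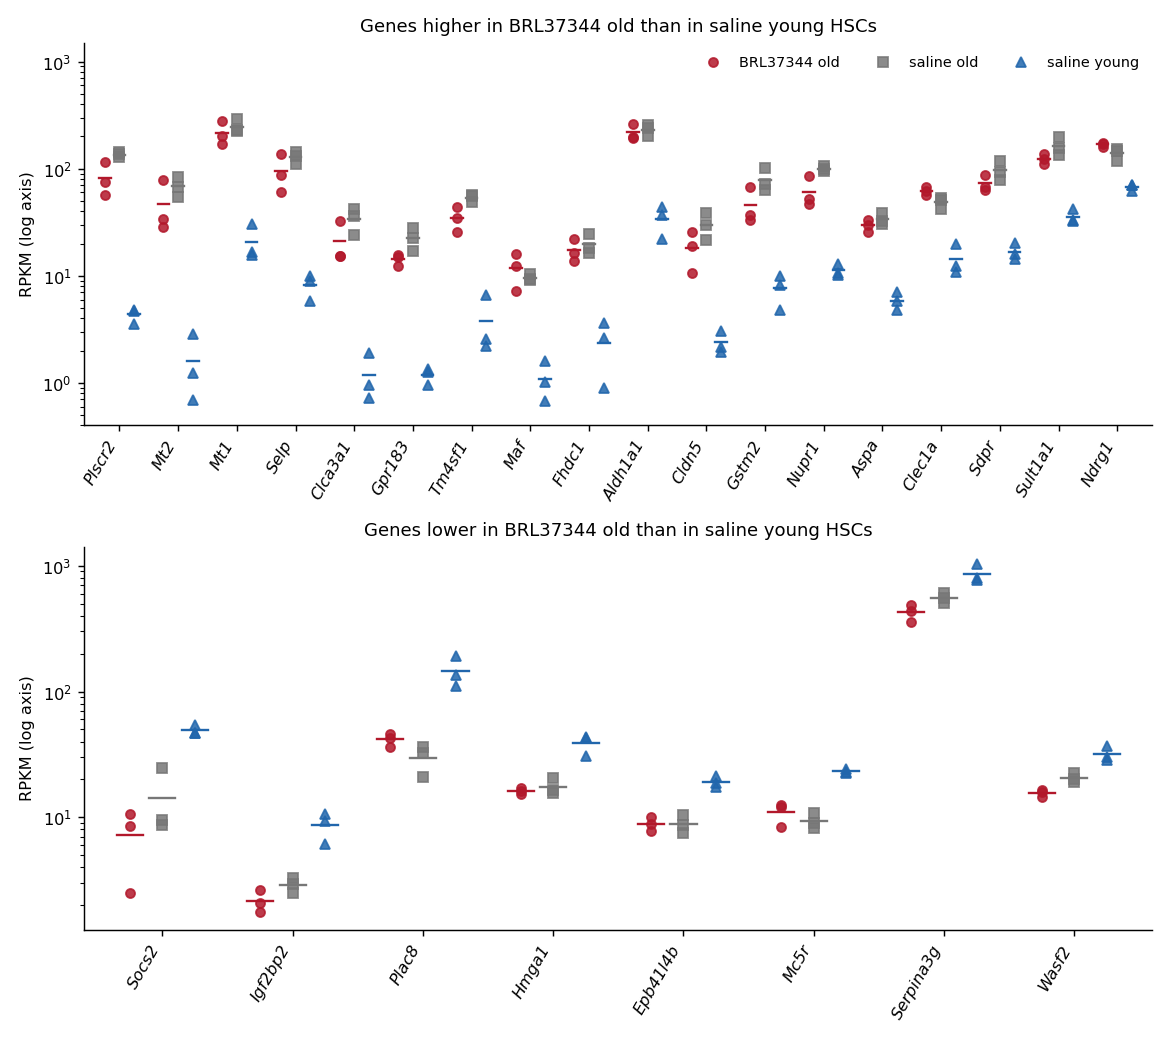
RPKM on a log axis for 18 of the genes that rose (top) and 8 of the genes that fell (bottom), with 3 libraries a group as points and the mean of each group as a bar, in the order BRL37344 old, saline old, saline young. BRL37344 old lies apart from saline young in every gene drawn, and lies near saline old in most, with Plscr2 at 56.4 to 114 RPKM below saline old at 127 to 142 RPKM.

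Several surface receptors were higher in BRL37344 old. Gpr183, a receptor for oxysterols that guides immune cells, had 12.2, 15.1 and 15.7 RPKM in BRL37344 old HSCs, 27.9, 22.3 and 17.2 RPKM in saline old HSCs and 1.34, 0.948 and 1.26 RPKM in saline young HSCs. All 3 BRL37344 old values were below all 3 saline old values and far above the saline young values. Its log2 difference from saline young was 3.14 ± 0.23 with an adjusted p of 0.000285, and from saline old -0.61 ± 0.23 with an adjusted p of 0.839. Cysltr2, a receptor for cysteinyl leukotrienes, had 18.98, 20.6 and 22.8 RPKM in BRL37344 old HSCs, 34.6, 30.9 and 32.2 RPKM in saline old HSCs and 9.71, 9.198 and 8.68 RPKM in saline young HSCs, and the groups did not overlap in any pair. Its log2 difference from saline young was 1.13 ± 0.14 with an adjusted p of 0.00384, and from saline old it was -0.64 ± 0.14 with an adjusted p of 0.839.

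Clec1a, a C-type lectin-like receptor, lay on the other side of saline old. It had 56.8, 68.02 and 62.2 RPKM in BRL37344 old HSCs, 51.1, 42.2 and 53.01 RPKM in saline old HSCs and 19.8, 12.3 and 10.8 RPKM in saline young HSCs, so that every BRL37344 old library was above every saline old library. The log2 difference from saline young was 2.13 ± 0.21 with an adjusted p of 0.000955, and that from saline old, 0.35 ± 0.21, had an adjusted p of 0.848. Cd38, an NAD-consuming ectoenzyme, averaged 29.8 ± 2.82 RPKM in BRL37344 old and 9.93 ± 4.003 RPKM in saline young, with an adjusted p of 0.0209, and passed in 4 of the 9 left-out fits. Cd200r4, a member of the CD200 receptor family, averaged 11.7 ± 5.27 RPKM and 1.698 ± 0.992 RPKM in the same groups, with an adjusted p of 0.0209, and passed in 5. Agtr1a, an angiotensin II receptor, had 7.33, 4.96 and 8.28 RPKM in BRL37344 old and 0.451, 0.664 and 0.867 RPKM in saline young, with an adjusted p of 0.00192. Gprc5c, an orphan receptor that marks dormant HSCs, had 2.805, 3.24 and 2.94 RPKM and 0.559, 0.302 and 0.0615 RPKM in these groups. Its adjusted p was 0.0119, and it was the only one of 28 tested HSC identity genes that passed. Gprc5c passed in 7 of the 9 left-out fits, with an adjusted p of 0.183 without the 2 libraries highest in neutrophil markers. All saline young values of Agtr1a and Gprc5c were below 1 RPKM, so both reached the level needed for testing only in the old groups.

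Further rises included a transcription factor and membrane proteins of varied kinds. Maf, a basic leucine zipper transcription factor, had 16.05, 12.3 and 7.27 RPKM in BRL37344 old and 1.02, 0.6801 and 1.58 RPKM in saline young, a log2 difference of 2.93 ± 0.31 with an adjusted p of 0.00172. Clca3a1, a chloride channel accessory protein, averaged 21.04 ± 9.83 RPKM in BRL37344 old, 34.1 ± 9.33 RPKM in saline old and 1.19 ± 0.614 RPKM in saline young, with an adjusted p of 0.000968. Ctsw, a cysteine protease known from cytotoxic lymphocytes, averaged 29.2 ± 8.32 RPKM in BRL37344 old and 8.36 ± 2.02 RPKM in saline young, with an adjusted p of 0.00558. Of the T and NK cell markers, the one tested, Nkg7, overlapped between the groups at 119, 90.4 and 235 RPKM in BRL37344 old and 100.2, 108 and 156 RPKM in saline young. Of all 7 such markers, 6, 2 and 5 were below 1 RPKM in BRL37344 old. In every saline old and saline young library 6 were below it, so more of them reached it in BRL37344 old replicates 2 and 3. Prom2, a prominin of membrane protrusions, and Rasl11a, a small GTPase, differed by 2.00 and 1.66, with adjusted p of 0.0295 and 0.0456. Prom2 passed in 4 of the 9 left-out fits and Rasl11a in 0. Ndrg1, a stress-responsive gene whose groups were among the tightest, had 170.4, 175 and 159.9 RPKM in BRL37344 old and 69.9, 69.9 and 61.96 RPKM in saline young, with an adjusted p of 0.000661. In saline old Ndrg1 had 118, 153 and 146 RPKM, below every BRL37344 old library, and the direct difference had an adjusted p of 0.839. Zg16, a secreted lectin, stood at 8.09, 2.13 and 16.7 RPKM in BRL37344 old and 20.2, 27.2 and 16.1 RPKM in saline old, and was listed at the offset that stands for no reads in all 3 saline young libraries.

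Over a list of 42 tested genes that earlier studies of aged HSCs tend to share, 23 rose and none fell, and all 42 had a positive difference. The list was drawn up with results of these data known, so its direction is a description. The median log2 difference was 1.37 in BRL37344 old and 1.86 in saline old, both against saline young, and the mean log2 level of the list was 4.5, 4.44 and 4.81 in BRL37344 old, 5.21, 5.0 and 4.77 in saline old and 2.83, 2.70 and 2.76 in saline young. BRL37344 old replicate 3 lay above saline old replicate 3, and the other BRL37344 old libraries lay below all 3 of saline old. The median of the direct difference, BRL37344 old minus saline old, was -0.40, and 9 of the 42 were positive.

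MHC class II genes encode the molecules that present peptides to helper T cells. Of these, H2-Eb1, H2-Aa and Cd74 were higher in 2 of the 3 BRL37344 old libraries than in any other library. H2-Eb1, a β chain, had 144, 168 and 51.6 RPKM in BRL37344 old HSCs, 58.9, 74.7 and 57.4 RPKM in saline old HSCs and 13, 18.3 and 9.85 RPKM in saline young HSCs. BRL37344 old and saline young were apart, and BRL37344 old replicate 3 was below all 3 saline old libraries while replicates 1 and 2 were above them. The log2 difference from saline young was 2.97 ± 0.39 with an adjusted p of 0.00691. H2-Aa, an α chain, had 402, 428 and 146 RPKM in BRL37344 old HSCs, 168, 197 and 163 RPKM in saline old HSCs and 74.7, 66.1 and 45.2 RPKM in saline young HSCs, with replicate 3 again the low one. Its log2 difference was 2.26 ± 0.37 with an adjusted p of 0.0209, and it passed in 4 of the 9 left-out fits. H2-DMb1, part of the peptide-loading complex, had 57.99, 73.9 and 53.9 RPKM in BRL37344 old and 36.2, 37.7 and 33.8 RPKM in saline young, a log2 difference of 0.77 ± 0.15 with an adjusted p of 0.047, and passed in 2.

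Cd74, the invariant chain that escorts class II molecules, had 672, 703.1 and 184 RPKM in BRL37344 old HSCs, 304, 317 and 229 RPKM in saline old HSCs and 153, 152 and 83.2 RPKM in saline young HSCs and did not pass, with a log2 difference of 1.82 ± 0.48 and an adjusted p of 0.193. Ciita, the master regulator of the class II genes, had 2.52, 2.47 and 1.22 RPKM in BRL37344 old and 0.811, 0.766 and 0.879 RPKM in saline young, apart but with an adjusted p of 0.515. Over the 10 tested class II genes, 3 rose, all 10 differences were positive and the median was 0.80, against a median of 0.28 in saline old. The mean log2 level of the list was 5.25, 5.35 and 4.39 in BRL37344 old, 4.37, 4.58 and 4.37 in saline old and 4.16, 3.86 and 3.65 in saline young. Without BRL37344 old replicate 3 the median was 1.06 and 4 genes passed, and without the 2 libraries highest in neutrophil markers it was 0.52 and none passed. None of the 10 passed in BRL37344 old against saline old, where the difference was 0.77 ± 0.39 for H2-Eb1 and 0.74 ± 0.37 for H2-Aa, with an adjusted p of 0.839 for each.

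Markers of other cells that carry class II were also measured. No library had Pax5, a defining B cell factor, above the offset, and the dendritic cell integrin Itgax was at or below 0.0455 RPKM. The B cell gene Cd79a had 0.248, 2.55 and 0.0354 RPKM in BRL37344 old and 5.94, 2.68 and 0.743 RPKM in saline young. Vpreb3, a gene of B cell precursors, had 0.294, 0.911 and 0.0002 RPKM in BRL37344 old and 3.48, 1.17 and 2.31 RPKM in saline young, apart, with an adjusted p of 0.249. The summed level of 7 B cell markers was 41.4 to 48.8 RPKM in BRL37344 old, 37.1 to 46.8 RPKM in saline old and 45.4 to 68.8 RPKM in saline young. Of these 7, 6, 5 and 6 were below 1 RPKM in BRL37344 old, 6 in each saline old library and 3, 2 and 5 in saline young. Where 6 were below it, a single marker carried most of the sum. That of 9 macrophage and dendritic cell markers was 30.3 to 117 RPKM in BRL37344 old, 38.6 to 76.1 RPKM in saline old and 69.9 to 173 RPKM in saline young. None of 18 tested genes of MHC class I presentation passed, and their median was 0.16. The member with the smallest p was H2-Q7, at 276, 308 and 264 RPKM in BRL37344 old and 178, 209.8 and 151 RPKM in saline young, with an adjusted p of 0.14.

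The 3 class II genes that rose lie together on chromosome 17, and the 150 bases before their starts are shown to compare a shared promoter element, from RefSeq on GRCm38.p6. Capitals mark the Y box core, searched as CTGATTGG on both strands, to which the factor NF-Y binds in class II promoters. H2-Eb1 lies at chr17:34305717-34305866 on the plus strand, H2-Aa at chr17:34287824-34287973 on the minus strand and H2-DMb1 at chr17:34153041-34153190 on the plus strand.
H2-Eb1: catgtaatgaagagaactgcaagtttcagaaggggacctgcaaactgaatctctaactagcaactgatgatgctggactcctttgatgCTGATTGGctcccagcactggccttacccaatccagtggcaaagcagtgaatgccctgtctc
H2-Aa: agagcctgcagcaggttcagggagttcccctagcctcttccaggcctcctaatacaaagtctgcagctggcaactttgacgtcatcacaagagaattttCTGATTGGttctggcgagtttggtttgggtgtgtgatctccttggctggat
H2-DMb1: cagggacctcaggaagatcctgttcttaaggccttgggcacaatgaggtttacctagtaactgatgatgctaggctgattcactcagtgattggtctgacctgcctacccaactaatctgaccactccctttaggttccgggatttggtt
The exact letters stood in the H2-Eb1 and H2-Aa windows and not in that of H2-DMb1, and in 3.16% of 32851 windows of this length. 

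**Figure D3:**
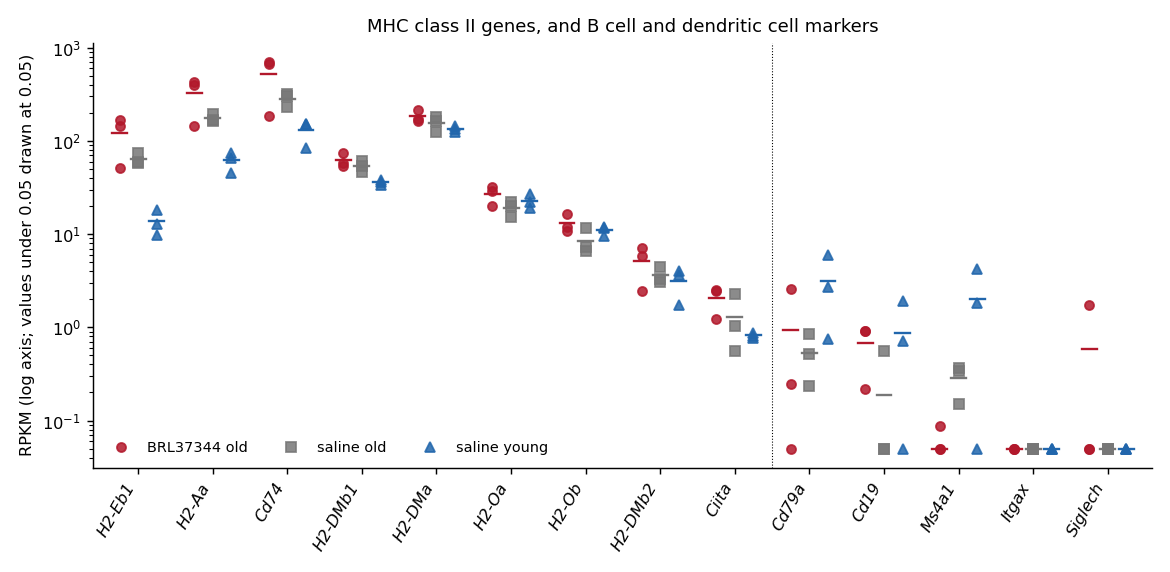
RPKM on a log axis for 9 MHC class II genes (left of the dotted line) and 5 B cell and dendritic cell markers (right), with 3 libraries a group as points and group means as bars. In H2-Eb1, H2-Aa and Cd74, BRL37344 old replicate 3 is the low point of its group, at 51.6, 146 and 184 RPKM, and of the markers on the right Siglech was above 0.05 RPKM only in 1 BRL37344 old library.

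The falls were few. Socs2, an inhibitor of growth hormone and STAT5 signalling, had 10.6, 8.47 and 2.48 RPKM in BRL37344 old HSCs, 24.4, 8.75 and 9.595 RPKM in saline old HSCs and 46.8, 47.1 and 54.1 RPKM in saline young HSCs. BRL37344 old was apart from saline young, and its replicate 3 was the lowest of all 9 libraries. The log2 difference was -2.90 ± 0.49 with an adjusted p of 0.0263, and it passed in 5 of the 9 left-out fits. It was the only one of 19 tested SOCS and STAT genes that passed, and the median of that list was -0.03.

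Plac8, a small cysteine-rich protein of immune and placental cells, had 42.4, 46.2 and 36.3 RPKM in BRL37344 old, 20.8, 32.3 and 36.4 RPKM in saline old and 111, 135 and 193 RPKM in saline young. Its log2 difference was -1.77 ± 0.24 with an adjusted p of 0.00691, and 0.51 ± 0.24 against saline old. Serpina3g, a serine protease inhibitor of hematopoietic cells and an abundant transcript, averaged 429 ± 65.7 RPKM in BRL37344 old, 554 ± 54.3 RPKM in saline old and 865 ± 138 RPKM in saline young, with a log2 difference from saline young of -1.01 ± 0.15 and an adjusted p of 0.0105. Wasf2, which drives actin branching through the Arp2/3 complex, had 16.5, 15.97 and 14.5 RPKM in BRL37344 old HSCs, 20.2, 19.04 and 22.4 RPKM in saline old HSCs and 28.7, 36.9 and 29.9 RPKM in saline young HSCs, so that BRL37344 old was below both other groups. Its log2 difference from saline young was -0.99 ± 0.15 with an adjusted p of 0.0106.

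The remaining falls were of varied kinds. Igf2bp2, an RNA-binding protein of the fetal and young HSC programme, had 2.07, 1.75 and 2.64 RPKM in BRL37344 old and 10.5, 6.13 and 9.42 RPKM in saline young, a log2 difference of -1.77 ± 0.27 with an adjusted p of 0.0119. Hmga1, a chromatin protein of dividing cells, had 15.4, 17.1 and 16.1 RPKM in BRL37344 old and 30.8, 43.7 and 42.4 RPKM in saline young, a log2 difference of -1.23 ± 0.17 with an adjusted p of 0.00806, and was the only one of 34 tested epigenetic regulators that passed. In saline old Hmga1 had 20.4, 15.6 and 16.5 RPKM, which overlapped BRL37344 old. Mc5r, a melanocortin receptor, and Epb41l4b, a band 4.1 family protein, differed by -1.06 and -1.06, with adjusted p of 0.0361 and 0.0263. In the 9 left-out fits Igf2bp2 passed in 6, Hmga1 in 7, and Mc5r and Epb41l4b in 3 each. Nov, a secreted CCN family protein, stood at 1.69, 2.51 and 2.98 RPKM in saline young and at the offset in all 3 BRL37344 old libraries. The highest saline old value of Nov was 0.0812 RPKM.

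The mean level of the mitosis list was lower in 2 of the 3 BRL37344 old libraries than in any other library. Birc5, which encodes survivin of the chromosomal passenger complex, had 28.1, 24.9 and 104 RPKM in BRL37344 old HSCs, 60.4, 84.8 and 102 RPKM in saline old HSCs and 67.5, 76.5 and 78.6 RPKM in saline young HSCs. Replicates 1 and 2 of BRL37344 old were below every other library and replicate 3 was above every other library. Ccnb2, a mitotic cyclin, had 21.2, 18.6 and 85.2 RPKM in BRL37344 old HSCs, 66.5, 73.6 and 104 RPKM in saline old HSCs and 65.5, 69.9 and 65.2 RPKM in saline young HSCs, and Ube2c, which loads ubiquitin for the anaphase-promoting complex, had 14.5, 19.5 and 63.8 RPKM in BRL37344 old and 52.1, 69.6 and 68.5 RPKM in saline young. In both, replicates 1 and 2 of BRL37344 old were below every saline young library and replicate 3 was not.

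None of 29 tested mitosis genes passed, 28 of them were negative and the median was -0.81, against 0.10 in saline old. The mean log2 level of the list was 3.12, 3.07 and 4.38 in BRL37344 old, 4.17, 4.35 and 4.60 in saline old and 4.31, 4.32 and 4.25 in saline young. Without BRL37344 old replicate 3, 14 of the 29 passed, all lower, with a median of -1.25, and without any 1 of the other 8 libraries none passed. In BRL37344 old against saline old the median was -0.92, none of the 29 passed, and 12 passed, all lower, without that replicate. DNA replication genes had a median of -0.41 with none of 28 called. Their median was -0.19 without the 2 libraries highest in neutrophil markers and -0.18 without BRL37344 old replicate 2 alone, and their mean log2 level was 4.46, 4.27 and 5.07 in BRL37344 old and 4.66, 5.08 and 5.11 in saline young. Their leading members were Pole, a polymerase subunit, at 24.3, 27.6 and 31.2 RPKM in BRL37344 old and 42.2, 38.8 and 41.05 RPKM in saline young (adjusted p 0.17), and E2f1, the S-phase transcription factor, with an adjusted p of 0.396. The cell cycle inhibitor genes Cdkn2c and Gadd45g had 28.2, 23.6 and 48.9 RPKM and 8.89, 5.57 and 22.5 RPKM in BRL37344 old against 16.1, 14.3 and 11.4 RPKM and 3.86, 3.37 and 3.22 RPKM in saline young, with adjusted p of 0.0803 and 0.192, and none of 22 tested p53 targets and CDK inhibitors passed, Cdkn1a included (adjusted p 0.93).

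**Figure D4:**
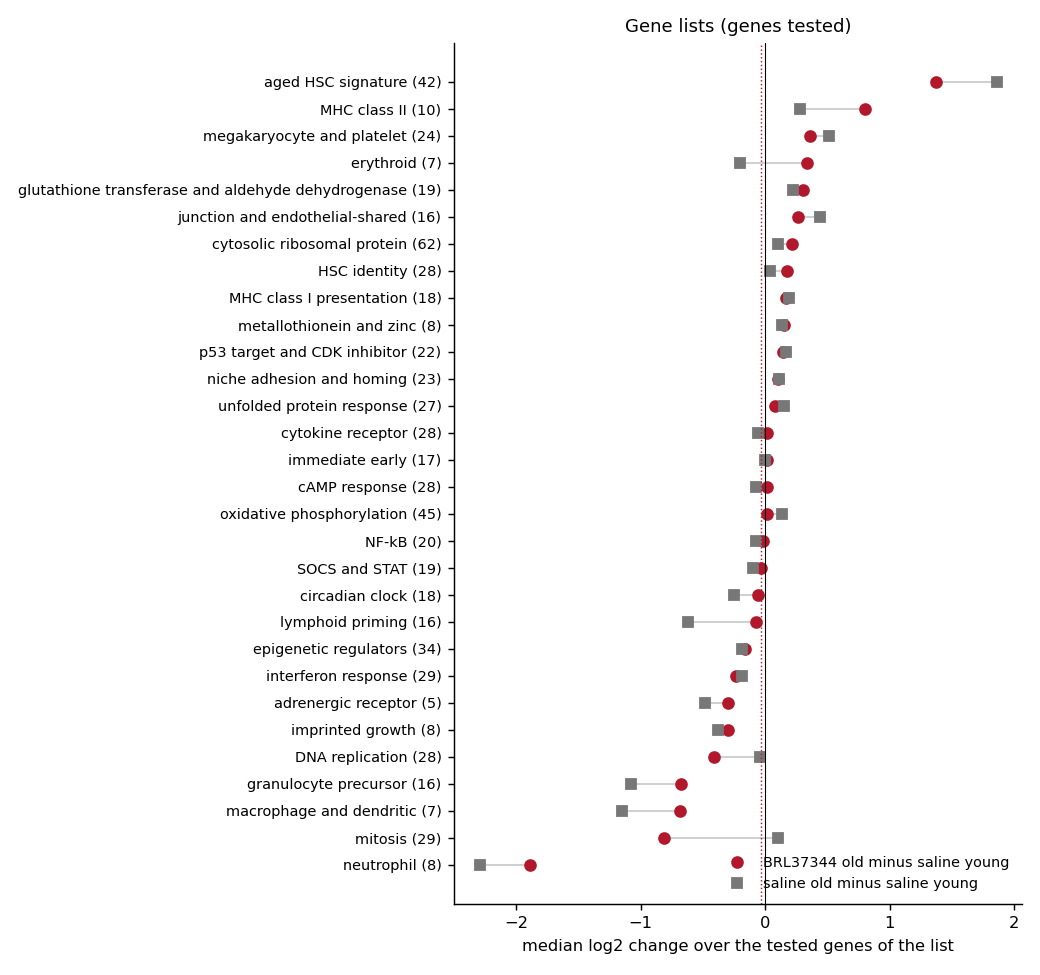
Median log2 difference of each gene list with at least 5 tested genes, whose number is in parentheses, for BRL37344 old minus saline young (red circles) and saline old minus saline young (grey squares); both use the same young libraries and the dotted line is the median of all genes, -0.04. The aged HSC list stands at 1.37 and 1.86, MHC class II at 0.80 and 0.28, and mitosis at -0.81 and 0.10, in BRL37344 old and saline old.

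Receptors for the agent were looked at next. Adrb3, the β3-adrenergic receptor that BRL37344 targets, was listed at the offset in every library, and the highest Adrb1 value was 0.039 RPKM. None of 28 tested genes of the cyclic AMP response passed, with a median of 0.01. Per1, a clock gene that cyclic AMP induces in many cells, had 19.4, 18.6 and 11.1 RPKM in BRL37344 old and 5.82, 4.64 and 6.38 RPKM in saline young, apart but with an adjusted p of 0.107. Saline old had 4.83, 10.7 and 10.95 RPKM of Per1, and the direct log2 difference was 0.90 ± 0.33 with an adjusted p of 0.839. Adcy3, an adenylyl cyclase, had 0.465, 1.59 and 0.5101 RPKM in BRL37344 old and 2.69, 3.88 and 6.72 RPKM in saline young, with an adjusted p of 0.136. Saline old, at 1.71, 0.477 and 0.642 RPKM of Adcy3, overlapped BRL37344 old. None of 18 tested clock genes passed.

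Markers by which HSCs are commonly sorted did not pass. Kit, the stem cell factor receptor, averaged 222 ± 37.2 RPKM in BRL37344 old and 227 ± 72.2 RPKM in saline young, with an adjusted p of 0.996. Procr, which encodes EPCR, had 44.2, 71 and 28.98 RPKM in BRL37344 old and 36.2, 35.3 and 34.7 RPKM in saline young, and Slamf1, which encodes CD150, had 20.7, 15.9 and 33.8 RPKM and 13.9, 21.4 and 23.3 RPKM in these groups. Both overlapped between the groups, with adjusted p of 0.738 and 0.86. Cd48, whose protein is low on HSCs and high on progenitors, had 10.2, 7.54 and 8.72 RPKM in BRL37344 old HSCs, 2.801, 2.27 and 6.2 RPKM in saline old HSCs and 12.8, 22.8 and 22.7 RPKM in saline young HSCs. Here BRL37344 old lay between the others without overlap, with a log2 difference of -1.06 ± 0.35 from saline young (adjusted p 0.312) and 1.23 ± 0.35 from saline old (adjusted p 0.839).

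Cd48 was among the genes called in saline old against saline young and not in BRL37344 old against saline young, of which the 8 with the smallest p in each direction are described. St3gal5, a ganglioside-making sialyltransferase, had 4.304, 6.85 and 3.599 RPKM in BRL37344 old HSCs, 2.13, 1.401 and 0.776 RPKM in saline old HSCs and 6.42, 11.2 and 11.2 RPKM in saline young HSCs, and Foxn3, a forkhead repressor, had 53.6, 51.7 and 58.8 RPKM in BRL37344 old HSCs, 41.9, 28.2 and 28.9 RPKM in saline old HSCs and 68.9, 65.3 and 66.9 RPKM in saline young HSCs. For Foxn3 the BRL37344 old values lay between the other groups with no overlap. The log2 difference from saline young was -0.90 ± 0.35 for St3gal5 (adjusted p 0.433) and -0.29 ± 0.15 for Foxn3 (adjusted p 0.596), and that from saline old was 1.5 ± 0.35 and 0.74 ± 0.15, with an adjusted p of 0.839 for each. Rnase6, Fscn1, Mlec, Lst1 and Phlda2 were the other falls described, with log2 differences from saline young of -0.95 to -0.28 in BRL37344 old and -1.62 to -0.60 in saline old.

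The rises described were led by Srd5a1, a steroid reductase, with 8.26, 7.58 and 11.9 RPKM in BRL37344 old HSCs, 13.3, 15.8 and 14.2 RPKM in saline old HSCs and 4.43, 5.03 and 4.49 RPKM in saline young HSCs. Clu, which encodes the chaperone clusterin and is platelet-linked in HSCs, had 17.01, 6.98 and 18.4 RPKM in BRL37344 old HSCs, 64.8, 38.1 and 20.97 RPKM in saline old HSCs and 0.0686, 2.62 and 2.23 RPKM in saline young HSCs. The BRL37344 old groups of both genes lay above saline young and below saline old without overlap. Jam2, Abca4, Rbm19, Efna1, Arhgap29 and Plscr1 were the other rises described, with log2 differences from saline young of 0.49 to 2.24 in BRL37344 old and 0.81 to 3.38 in saline old. Passing in one comparison and missing in another does not show that the old groups differ. Each of the 16 genes had an adjusted p of 0.839 or above in the direct comparison.

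**Figure D5:**
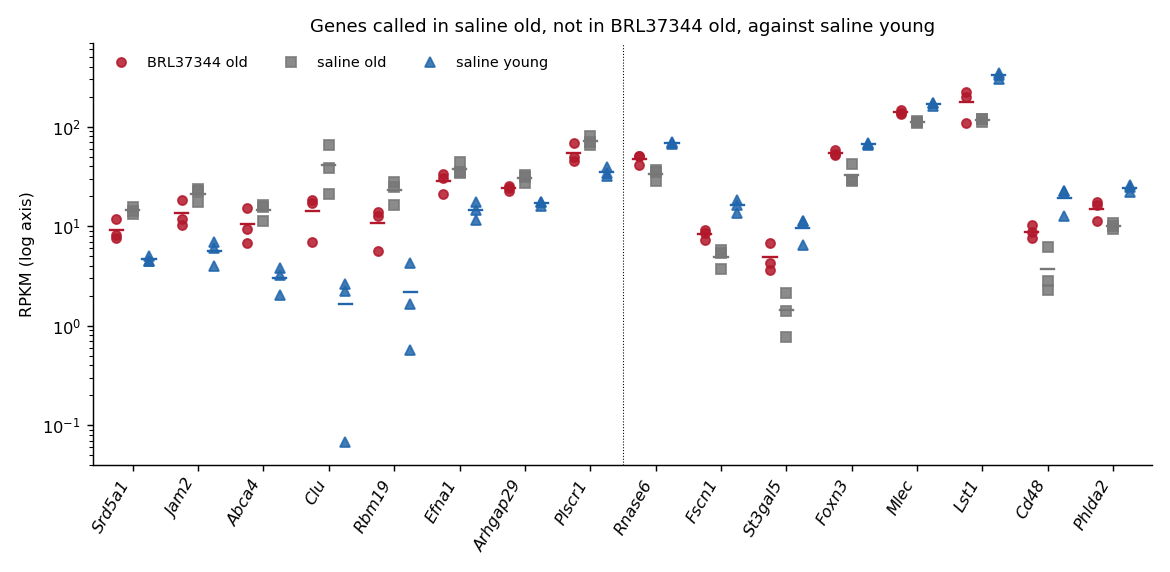
RPKM on a log axis for 16 of the genes called in saline old but not in BRL37344 old against saline young, 8 higher (left of the dotted line) and 8 lower (right), with 3 libraries a group as points and group means as bars. BRL37344 old means lie between those of saline old and saline young for all 16, a place that the way they were chosen favours, as for Cd48 at 8.81, 3.76 and 19.4 RPKM in BRL37344 old, saline old and saline young.

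Some genes passed in BRL37344 old and not in saline old, H2-Aa, H2-DMb1, Dhrs3, Socs2, Serpina3g and Wasf2 among them. Cd53, a leukocyte tetraspanin, had 163, 104 and 101 RPKM in BRL37344 old HSCs, 86.5, 90.2 and 66.4 RPKM in saline old HSCs and 48.2, 43.2 and 64.8 RPKM in saline young HSCs, with a log2 difference from saline young of 1.22 ± 0.21 (adjusted p 0.0308). All 3 BRL37344 old values were above all 3 saline old values. Cd53 passed in 4 of the 9 left-out fits. Pcp4l1, a calmodulin-binding protein, had 67.2, 74.5 and 61.7 RPKM in BRL37344 old, 51.5, 61.7 and 54.2 RPKM in saline old and 37.6, 37.3 and 39.9 RPKM in saline young, with an adjusted p of 0.00903. The proteoglycans Bgn and Sdc2 and the apolipoprotein L gene Apol7e differed by 0.86, 0.84 and 1.41, with adjusted p of 0.0317, 0.0456 and 0.0456, and passed in at most 2 of the 9 left-out fits. The adjusted p of the direct difference from saline old was 0.839 or above for each gene named here.

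Compared directly, no gene of 13514 (0.0%) passed in BRL37344 old against saline old by limma, 762 genes had an unadjusted p under 0.05 where 676 would be 5%, and the smallest adjusted p was 0.0772. Without BRL37344 old replicate 3, 39 genes passed, 12 higher and 27 lower. Of the 94 genes that rose against saline young, 62 had a BRL37344 old mean below the saline old mean and 32 above it.

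Granulocyte precursor genes had a median of -0.67 over 16 tested and neutrophil genes -1.89 over 8, and none of either passed. Leaving out 1 library moved the granulocyte precursor median between -1.19 (without saline young replicate 1) and -0.03 (without saline young replicate 3), and the neutrophil median between -3.31 (without BRL37344 old replicate 2) and -0.17 (without BRL37344 old replicate 1). Without the 2 libraries highest in neutrophil markers the granulocyte precursor median was -0.36, and Prtn3, a granule protease, passed as higher with an adjusted p of 0.0394. Mpo, the myeloperoxidase gene, stood at 3.27, 142 and 7.11 RPKM in BRL37344 old and 24.97, 77.4 and 405 RPKM in saline young, a wide spread within both groups. No gene passed in the lymphoid priming, interferon, ribosomal protein, oxidative phosphorylation, cytokine receptor, NF-kB, immediate early or imprinted growth lists. Lymphoid priming genes had a median of -0.07 in BRL37344 old and -0.62 in saline old over 16 tested, of which 10 were negative in BRL37344 old. Wfdc17, counted in this list and with its smallest p, went against that median. It had 146, 174 and 82.9 RPKM in BRL37344 old and 52.6, 37.1 and 51.1 RPKM in saline young (adjusted p 0.0901). Saline old had 70.3, 60.8 and 34.3 RPKM of Wfdc17, and the direct difference had an adjusted p of 0.839. The interferon response had a median of -0.24 over 29, with 7 positive, led by Ifi27l2a at 5, 13.4 and 13.2 RPKM in BRL37344 old and 30.03, 24.5 and 29.4 RPKM in saline young (adjusted p 0.082). In saline old that median was -0.18 and Ifi27l2a had 9.71, 11.4 and 10.4 RPKM, within the range of BRL37344 old. Ribosomal protein genes had a median of 0.21 with 52 of 62 positive, led by Rps21 (adjusted p 0.111), and oxidative phosphorylation genes 0.01 over 45. Cytokine receptors, NF-kB targets, immediate early genes and imprinted growth genes had medians of 0.02, -0.02, 0.02 and -0.30 (-0.09 without saline young replicate 3 for the imprinted genes), and niche adhesion genes had a median of 0.10 with Selp and Itgb3 the 2 called of 23. None of the tested markers of B cells (3 genes), plasma cells (3), erythroid cells (7), macrophages and dendritic cells (7), endothelium (4) or mast cells and basophils (1) passed. Jchain, the joining chain of plasma cells, had 2.09, 263 and 6.16 RPKM in BRL37344 old, and 0.275 RPKM, 263 RPKM and the offset in saline young, high in 1 library of BRL37344 old and 1 of saline young.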

How the data were processed

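RNA of sorted HSCs was made into libraries with the SMART-Seq v4 and Nextera XT kits, which do not mark strand, and read on an Illumina instrument, as the labels' protocols state. Partek, STAR 2.5.3a, Trim Galore and the mouse build mm10 appear in the submitters' processing notes without a stated role. The authors deposited 1 table of RPKM values per gene and library. The unit was inferred from the values, which would look alike in FPKM. An offset of 0.0001 for every transcript of a gene had been added. Of 46628 rows, 2 name no gene and 4 with a repeated name were left out, 27 names had turned into dates, and 46622 genes remained. Groups were taken from the titles. The descriptions end in the same tag in all groups and do not separate them. It is not stated that replicate libraries are separate mice, so the p-values rest on library-to-library spread, which may be technical.

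Depth was read from low values, up to 10 reads, in 5568 single-transcript genes of 1000 or more bases, counted 200 bases shorter. Of these values, 87.0% to 89.5% lay within 0.05 of a whole read. Genes at 1 RPKM or more in at least 3 of 9 libraries were tested on log2(RPKM + 0.5) by limma 3.58.1, run in R 4.3.3 with mean-variance trend and robust empirical Bayes, 1 mean per group and 6 residual degrees of freedom. Fold changes on this scale understate those of low genes. The design was checked on simulated data. Near-identical family members (Mt1 and Mt2, the Gstm, Plscr, Serpina3 and H2 genes, Hmga1 and its pseudogenes) may share reads.

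Named genes are the 30 largest rises and up to 15 falls among called genes whose log2 level averaged 2 or more, up to 4 called genes of each of 35 lists (or the 2 with the smallest p), genes called in only 1 of the 2 comparisons with saline young, and 9 fixed genes. Agtr1a, Birc5, Ccnb2, Cd74, Cdh5, Ciita, Cysltr2, Itga2b, Itgax, Kdr, Ly6a, Meis1, Mpo, Ndrg1, Nov, Pax5, Pf4, Siglech, Ube2c, Wwtr1, Zg16 and the genes of the closing observations were picked with their values in view. The comparison, its genes and the lists were chosen with earlier results of these data known. Alternatives were other pseudocounts, filters, TMM and quantile scaling, quality weights, a 2-group model, a replicate block, and leaving out 1 library at a time. A few listed genes are not analysed or not reported here.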

Additional observations from a re-analysis of the deposited data

How the results depend on the processing

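Against 104 genes called in BRL37344 old against saline young, sample quality weights gave 169 (147 higher, 22 lower) and leaving out the 2 libraries highest in neutrophil markers gave 42. The lowest count with 1 library left out was 57 and the highest 163, without BRL37344 old replicate 3 and with 59 lower. In saline old against saline young, 213 genes were called. No filter on low values gave 140, quality weights 1284, leaving out those 2 libraries 82, and leaving out 1 library 96 to 586, the cause of which was not tested. In BRL37344 old against saline old, 0 were called. A pseudocount of 0.1 gave 1, quality weights 3, a model of only the 2 groups 2, and leaving out 1 library 0 to 39. Of 113 named genes, none of the 47 that passed changed sign under any alternative. Among the others the sign changed for 5, Jchain, Nkg7, Kit, Slamf1 and Cdkn1a, under 1 or more alternatives, as for Jchain with 1.83 and, without those 2 libraries, -1.78. With no filter, 16 named genes lost their call, under the 2-group model 13, and without those 2 libraries 28.

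Libraries with the same replicate number deviated together only weakly, and the labels do not say that the number pairs libraries. Their correlations between BRL37344 old and saline young were 0.19, 0.04 and 0.03, against -0.16 to 0.13 for libraries of different number in these groups. The number was not treated as a pairing. With the replicate number as a block, 92 genes were called in BRL37344 old against saline young, 174 in saline old against saline young and 0 in BRL37344 old against saline old, and 9 named genes lost their call.

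At the lowest implied depth, 12180000 reads in saline young replicate 1, a value of 1 RPKM rests on few reads, and genes near 1 RPKM are the least certain. Only 3 libraries a group limit the precision of every difference.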

Other observations

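Further genes that passed in BRL37344 old against saline young belong to no list above. Bmpr1a, a receptor for bone morphogenetic proteins, had 2.63, 3.803 and 3.28 RPKM in BRL37344 old and 0.655, 0.126 and 0.182 RPKM in saline young (limma adjusted p 0.0106). All saline young values of Bmpr1a were below 1 RPKM, so it reached the level needed for testing only in the old groups. Enpp5, a membrane phosphodiesterase, averaged 148 ± 21.2 RPKM in BRL37344 old and 61.1 ± 8.93 RPKM in saline young (SD, n = 3 each, limma adjusted p 0.00172). Rgs1, which shortens signalling by G protein-coupled receptors, had 181, 127 and 114 RPKM in BRL37344 old and 69.4, 56.4 and 70.5 RPKM in saline young, with an adjusted p of 0.0153, and Gng11, a G protein γ subunit, had 218, 209 and 214 RPKM in BRL37344 old and 153, 143 and 135 RPKM in saline young, with an adjusted p of 0.0131. Tsc22d1, a leucine zipper regulator of TGF-β signalling, was the most abundant of the genes that rose, at 477 ± 46.6 RPKM in BRL37344 old and 254 ± 68.6 RPKM in saline young, with an adjusted p of 0.0294. In all 5 genes the groups did not overlap. Of the 9 fits that left out a library, Enpp5 passed in 9, Bmpr1a and Rgs1 in 6, Gng11 in 5 and Tsc22d1 in 3.

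The predicted small nucleolar RNA gene Gm24161 had 26.6, 4.23 and 6.32 RPKM in BRL37344 old and was listed at the offset in all 3 saline old and all 3 saline young libraries, so no fold is given. H2-Ab1, the β chain that pairs with the product of H2-Aa, was listed at or below 1.61 RPKM in all 9 libraries while H2-Aa reached 428 RPKM.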
